A study of Homo sapiens with 4 samples.

Results

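The region described here is the 3' part of 18S rRNA, nt 1201 to 1869, which spans about the 3' major and 3' minor domains and ends at the mature 3' end. It was taken by position, as nt 4855 to 5523 of the 45S precursor RNA45SN5, and holds 669 of the 1869 positions of 18S and of the 15984 positions listed in all. Read depth at each position was measured for RNA that came down with Flag-tagged SIRT7 on anti-Flag M2 gel from HEK293T cells, which derive from human embryonic kidney, stably overexpressed the tagged protein and were used at passages 10 to 15. The cytosolic and the nuclear fraction had 2 libraries each, and all 4 came from the same overexpressing line. Without an input or mock library analysed here, depth describes what was recovered and not enrichment. The labels number the libraries without naming separate cultures, so their spread may be technical. Reads from the many copies of rDNA are not separated in such depths.

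The 3' major domain of 18S folds into the head of the small ribosomal subunit, and the 3' minor domain forms helices 44 and 45 on the face that meets the large subunit. A pair of adenosines near the top of helix 44 checks the match between codon and anticodon, which makes this the decoding site. Several nucleotides here are modified while the subunit matures. EMG1 and TSR3 act on the pseudouridine of the helix 31 loop, NAT10 acetylates a cytidine in helix 34 and another in helix 45, BUD23 makes the 7-methylguanosine between the P and E sites, METTL5 methylates an adenosine of helix 44, and DIMT1 dimethylates the adjacent adenosines of the helix 45 loop. The mature 3' end is cut last, by NOB1 in the cytoplasm. SIRT7 is a nucleolar sirtuin that removes acyl groups from lysines.

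The stretches on which the results turn are printed below as the deposited reference sequence, 5' to 3' in DNA letters. Capitals mark the decoding adenosines and those of the modified nucleotides above that lie in these stretches, together with the 2'-O-methylated cytidine at the start of helix 44. At all 10 such sites of the region, of which the helix 34 cytidine at nt 1337 is not in a printed stretch, the base matched the textbook one. The helix 31 stretch is shown because it holds nt 1249, the shallowest position of the 3' major domain in every library. The second stretch, which holds none of the marked nucleotides, is shown because it is the deepest window. The stretch around the 7-methylguanosine and the helix 44 start are shown for the rise in the nucleus. The last pair is shown for a plateau of depth and for its fall toward the 3' end.
Helix 31, nt 1228 to 1268: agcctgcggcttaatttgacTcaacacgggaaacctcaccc
Deepest window, nt 1451 to 1500: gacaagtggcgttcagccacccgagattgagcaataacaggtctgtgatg
P and E site stretch, nt 1619 to 1659: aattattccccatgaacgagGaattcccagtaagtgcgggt
Helix 44 start, nt 1683 to 1723: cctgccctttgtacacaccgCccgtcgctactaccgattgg
Plateau to the decoding adenosines, nt 1758 to 1825: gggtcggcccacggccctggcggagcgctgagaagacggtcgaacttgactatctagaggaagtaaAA
Decoding site to the mature 3' end, nt 1826 to 1869: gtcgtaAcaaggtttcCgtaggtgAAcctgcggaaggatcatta

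As a whole the region made up more of the rRNA depth in the nucleus. Relative depth, which is depth divided by the mean of the same library over all 15984 positions, averaged 2.10 and 2.35 over the region for the cytosolic pair and 2.97 and 3.06 for the nuclear pair. Both nuclear libraries lay above both cytosolic ones. The region held 9.32% ± 0.761 of all rRNA depth from cytosol against 12.6% ± 0.260 from nucleus (SD, n = 2), although it makes up 4.19% of the positions. The log2 difference, nucleus minus cytosol, was 0.44 (SE 0.12), a 1.36-fold difference (95% interval 1.08 to 1.71), with an adjusted p of 0.0402 from limma over 12 regions. Of those 12 regions 58.3% passed the threshold of 0.05, and leaving out any library ended this call (limma adjusted p from 0.0552 to 0.107). Mitochondrial 12S rRNA, which belongs to another compartment, was 59.4-fold deeper in the nuclear libraries by the same measure (limma adjusted p = 3.1e-05), and its part in the differences of 18S was not tested.

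This rise was mostly shared with the rest of 18S. Mean depth of the region over that of nt 1 to 1200 was 0.956 and 1.001 from cytosol against 1.05 and 1.06 from nucleus. The log2 ratios of -0.03 ± 0.05 and 0.07 ± 0.01 (SD, n = 2) differed by 0.11. The fractions did not overlap, and the two-sided exact permutation test gave p = 0.333, the lowest value possible with 2 libraries per fraction. Scaled to the depth of 18S itself, the region difference was 0.067 with a limma adjusted p of 0.412. The region made up 34.8% to 37.1% of that depth, so it was partly measured against itself. With the median of ratios, a scaling by the typical window, the region difference was 0.22 (limma adjusted p = 0.322). Scaling to 28S gave 0.63 (limma adjusted p = 0.0216).

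Along the region depth formed a trough, a long hill and a plateau, and the order was the same in all 4 libraries. Depth fell from nt 1201 into a trough that began just ahead of the helix 31 loop. At the modified pseudouridine, nt 1248, relative depth was 0.320 and 0.353 from cytosol against 0.401 and 0.436 from nucleus. From there depth climbed to its highest point at nt 1481 in every library, where it reached 4.64 and 5.22 from cytosol against 6.61 and 6.93 from nucleus. A bin of 10 nt at the top, nt 1471 to 1480, was 12.6 and 12.8 times as deep as the shallowest bin of the 3' major domain for cytosol and 14.2 and 14.1 times for nucleus. Unevenness along the region, as the coefficient of variation of depth, was 0.553 ± 0.00499 from cytosol against 0.582 ± 0.00250 from nucleus (SD, n = 2).

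**Figure D1:**
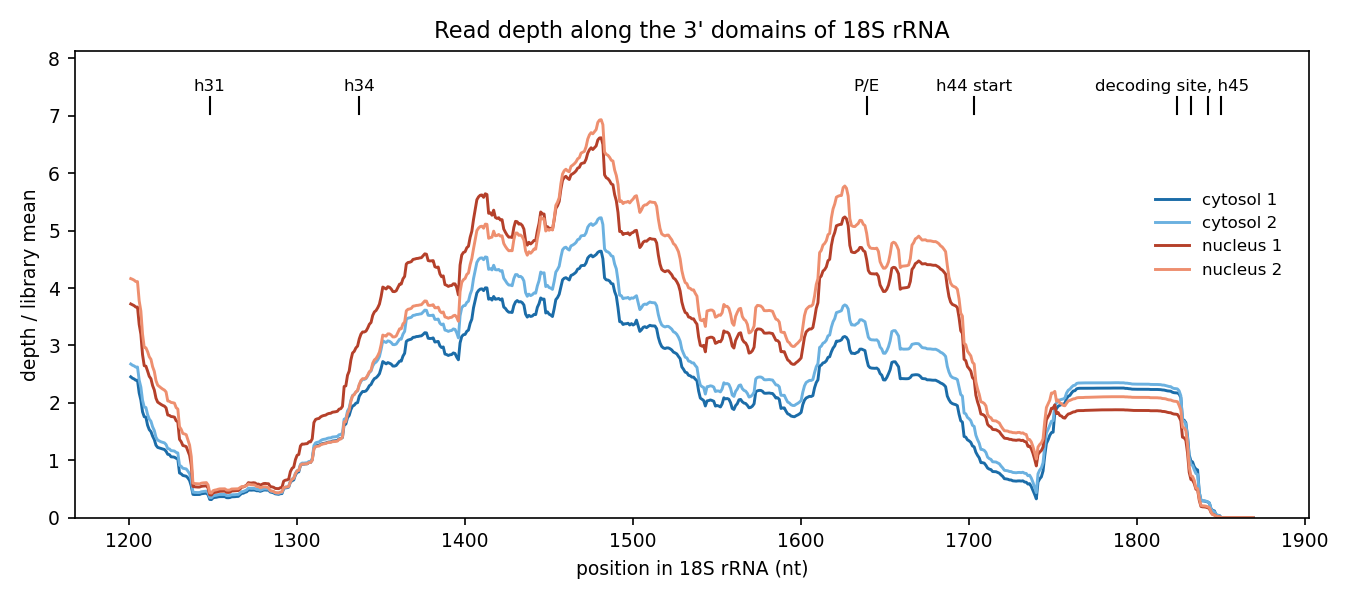
Relative depth (depth over the library mean, vertical axis) at each nucleotide of the region (horizontal axis, numbered in 18S), with 1 line per library and ticks at the helix 31 loop, helix 34, the 7-methylguanosine between the P and E sites, the helix 44 start and the sites from the decoding site to helix 45. Nuclear lines lie above the cytosolic ones around the highest point at nt 1481 and below them on the plateau from nt 1758 to 1825, and on the climb at nt 1301 to 1350 the second nuclear line runs close to the cytosolic ones.

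In windows of 50 nt, 8 of 13 windows rose in the nucleus and 0 fell (0 also at an unadjusted limma p under 0.05). Among all 264 tested windows 54.9% were called by limma at an adjusted p under 0.05, with 37.5% higher and 17.4% lower. Other scalings changed the split within the region, to 3 higher and 1 lower with the median of ratios and to 10 higher and 0 lower with 28S. With 18S, whose depth includes these windows, it was 4 higher and 2 lower. The median log2 difference of the region's 13 windows was 0.46, against 0.47 for the 24 windows of the rest of 18S and 0.01 for all windows tested. After 0.66 in the first window, differences grew from window to window, from 0.24 at nt 1251 to 1300 to 0.80 at nt 1701 to 1750 at the start of helix 44. They were below 0 in the last 2 windows.

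The trough and the climb out of it held 3 of the 5 windows that did not pass. At nt 1251 to 1300, the shallowest window of the nucleus and of the cytosol, relative depth was 0.456 and 0.482 from cytosol against 0.576 and 0.534 from nucleus (log2 difference 0.24, SE 0.11, limma adjusted p = 0.145). The window of the helix 34 acetylcytidine, nt 1301 to 1350, had 1.62 and 1.75 from cytosol against 2.32 and 1.72 from nucleus. There the second nuclear library fell between the cytosolic ones and was 0.742 times the first. Its difference of 0.25 (SE 0.17) had a limma adjusted p of 0.285 and passed only without nuclear replicate 2 (0.46, limma adjusted p = 0.00601). The next window, nt 1351 to 1400, had a difference of 0.31 with the fractions apart (limma adjusted p = 0.115).

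The first window and the deepest one rose. At nt 1201 to 1250, which ends at the helix 31 loop, relative depth was 1.12 and 1.24 from cytosol against 1.75 and 1.98 from nucleus. That was a log2 difference of 0.66 (SE 0.10, limma adjusted p = 0.0107). This window stayed past the threshold with the scaling to 18S (0.29, limma adjusted p = 0.0361) and with the median of ratios (0.44, limma adjusted p = 0.0478). The deepest window of both fractions was nt 1451 to 1500, with 4.05 and 4.56 from cytosol against 5.78 and 6.06 from nucleus. Both nuclear values were above both cytosolic ones, and the difference was 0.46 (SE 0.08, limma adjusted p = 0.0128). This call ended with the scaling to 18S (0.089, limma adjusted p = 0.272) and with the median of ratios (0.24, limma adjusted p = 0.143). On either side of it, nt 1401 to 1450 rose by 0.34, nt 1501 to 1550 by 0.55 and nt 1551 to 1600 by 0.61. Scaled to 18S these calls ended too, at -0.029, 0.18 and 0.24 (limma adjusted p = 0.740, 0.124 and 0.0539), and the first changed sign.

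Of the 4 largest rises, 3 were adjacent windows that run from the 7-methylguanosine site into helix 44. At nt 1601 to 1650, which holds the 7-methylguanosine at nt 1639, relative depth was 2.68 and 3.11 from cytosol against 4.32 and 4.77 from nucleus, a log2 difference of 0.65 (SE 0.10). At nt 1651 to 1700 it was 2.27 and 2.77 from cytosol against 4.02 and 4.40 from nucleus, a difference of 0.75 (SE 0.12). At nt 1701 to 1750, which opens with the helix 44 start, it was 0.837 and 1.02 from cytosol against 1.54 and 1.70 from nucleus, a difference of 0.80 (SE 0.13). In each of these windows the fractions were apart, with limma adjusted p-values of 0.0119, 0.0128 and 0.0122. They stayed past the threshold when depth was scaled to 18S, at 0.28, 0.37 and 0.43 (limma adjusted p = 0.0399, 0.0305 and 0.0228), although the first did not with the median of ratios (0.43, limma adjusted p = 0.0533). The cytosolic libraries also differed here, the second being 1.22 times the first at nt 1651 to 1700.

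**Figure D2:**
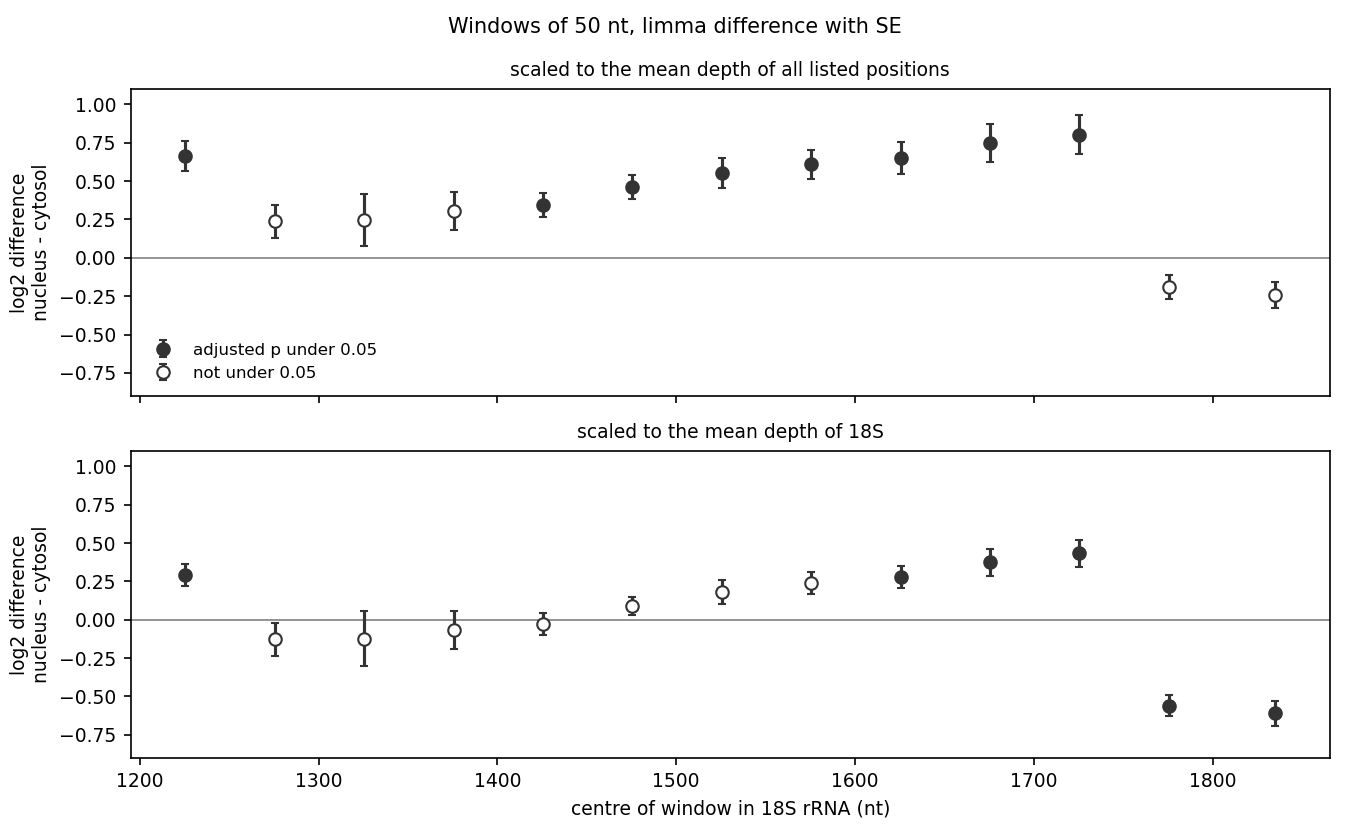
Log2 difference of relative depth, nucleus minus cytosol, in 13 windows of 50 nt (the last is longer) at their centres in 18S, with the SE of the limma fit as bars and filled points where the adjusted p was under 0.05. With depth scaled to all listed positions (upper panel) 8 windows rose and none of the 13 fell, and with depth scaled to 18S (lower panel) 4 rose and the last 2 fell.

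The pattern turned past nt 1740. From nt 1401 to 1751 both nuclear libraries lay above both cytosolic ones, and both lay below them from nt 1756 to nt 1869. Depth dropped to a low point at nt 1740 in all libraries, 0.330 and 0.439 from cytosol against 0.904 and 1.02 from nucleus, and then rose to a plateau. From nt 1758 to 1825 depth changed by no more than 10% within any library. A run this flat, 68 nt long, was the longest of its kind in 18S and 28S, since the longest was 36 nt in the rest of 18S and 45 nt in 28S. The plateau and the low point ahead of it were located after the depth profile had been seen. By the limit of 10% the plateau stops on the second decoding adenosine, and its sequence is that of the fifth line above. That exact end depends on the limit. At nt 1826 relative depth was still 2.09 and 2.13 from cytosol against 1.69 and 1.88 from nucleus.

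On the plateau the cytosolic libraries were the deeper ones, at 2.23 and 2.32 against 1.86 and 2.09 in the nucleus. The plateau therefore stood 6.76 and 5.29 times above the low point in the cytosol but 2.06 and 2.04 times in the nucleus. Set against the 20 nt around the low point, nt 1731 to 1750, the plateau had a log2 ratio of 1.34 ± 0.14 from cytosol against 0.45 ± 0.01 from nucleus (SD, n = 2). These differed by -0.90, more than either pair's spread (exact permutation p = 0.333), with both stretches picked from these same profiles. A ratio of this kind within each library does not depend on how libraries are scaled to each other.

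In the 2 windows that cover the plateau and the 3' end, whether the difference passed depended on the processing. At nt 1751 to 1800, a window outside the naming rule and chosen for its flatness, the log2 difference was -0.19 (SE 0.08, limma adjusted p = 0.115). It was -0.56 and passed when depth was scaled to 18S (limma adjusted p = 0.00694), and was 0.00103 with scaling to 28S. The window with the decoding adenosines and helix 45, nt 1801 to 1869, had 1.05 and 1.07 from cytosol against 0.848 and 0.949 from nucleus. Its difference of -0.24 (SE 0.09) missed the threshold with a limma adjusted p of 0.0874. Scaled to 18S it was -0.61 and passed (limma adjusted p = 0.00752), as did -0.46 with the median of ratios (limma adjusted p = 0.0398). Scaled to 28S it was only -0.052 and did not pass (limma adjusted p = 0.673). The G+C content was 78% at nt 1751 to 1800, the highest of the 13 windows, and 42.0% at nt 1801 to 1869, the lowest. With a line in G+C removed the differences were -0.055 and -0.51, and the second passed (limma adjusted p = 0.00376). With medians over positions nt 1801 to 1869 had -0.66 and passed (limma adjusted p = 0.00995).

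The balance of the domains also differed between the fractions. Mean depth of the last 170 nt, about the 3' minor domain, over that of the region before it was 0.562 and 0.531 from cytosol against 0.386 and 0.423 from nucleus. The log2 ratio was -0.87 ± 0.06 from cytosol against -1.31 ± 0.09 from nucleus (SD, n = 2), a difference of -0.44 with no overlap (exact permutation p = 0.333). The value depended on where the domain was taken to begin and was -0.55 for the last 150 nt and -0.27 for the last 190 nt. Taken from medians it was -0.16. Relative depth of the last 170 nt itself overlapped between the fractions, at 1.33 and 1.42 from cytosol against 1.36 and 1.52 from nucleus. For the region before it the values were 2.36 and 2.67 from cytosol against 3.52 and 3.58 from nucleus.

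At the decoding site depth began a steep descent toward the 3' end. At the first decoding adenosine, nt 1824, relative depth was 2.17 and 2.24 from cytosol against 1.80 and 2.02 from nucleus. At the METTL5 adenosine of helix 44, nt 1832, it was 0.990 and 0.928 from cytosol against 0.668 and 0.735 from nucleus. At the helix 45 acetylcytidine, nt 1842, the values were 0.275 and 0.279 from cytosol against 0.176 and 0.192 from nucleus. Cytosolic depth was thus 1.16 times nuclear depth at nt 1824, 1.37 times at nt 1832 and 1.51 times at nt 1842. Depth fell below 50% of the plateau level at nt 1831 in all 4 libraries. It fell below 10% at nt 1844 in both cytosolic libraries and at nt 1841 and 1839 in the nuclear ones.

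The sharpest change between neighbouring nucleotides of the region was at the first dimethylated adenosine of the helix 45 loop. From nt 1849 to nt 1850 depth fell 6.77 and 6.19 times in the cytosol and 6.58 and 5.07 times in the nucleus. On the second of these adenosines, nt 1851, 919 and 936 reads of depth were left from cytosol and 461 and 562 from nucleus. At nt 1824 these depths had been 451283 and 443491 from cytosol and 380983 and 382063 from nucleus. The last stretch of 18S was therefore measured on a small part of the reads. Modification itself was not measured.

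Past the mature 3' end the fractions crossed. Over the last 20 nt of 18S, nt 1850 to 1869, mean depth was 886 and 902 reads from cytosol against 471 and 568 from nucleus. Over the first 20 nt of ITS1, the spacer that follows 18S in the precursor, it was 185 and 193 from cytosol against 178 and 221 from nucleus. Depth in the spacer was thus 0.209 and 0.214 times that of the end of 18S for cytosol and 0.378 and 0.389 times for nucleus. The log2 ratios of -2.24 ± 0.03 and -1.38 ± 0.03 (SD, n = 2) differed by 0.86, with no overlap (exact permutation p = 0.333). The difference was 0.41 with 10 nt on each side of the end and 2.54 with medians over positions.

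The crossing took place within the first nucleotides of the spacer, a split made after the profile was seen. In nt 1 to 5 of ITS1 mean depth was 574 and 590 reads from cytosol against 339 and 421 from nucleus. In nt 11 to 20 it was 30.7 and 35.2 from cytosol against 110 and 138 from nucleus, a nuclear relative depth 3.83 times the cytosolic one. In nt 21 to 40 it was 13.6 and 17.9 against 70.6 and 81.5, or 4.91 times. These depths are thin beside the plateau, and a read counts at every base it covers, so they are not independent counts.

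**Figure D3:**
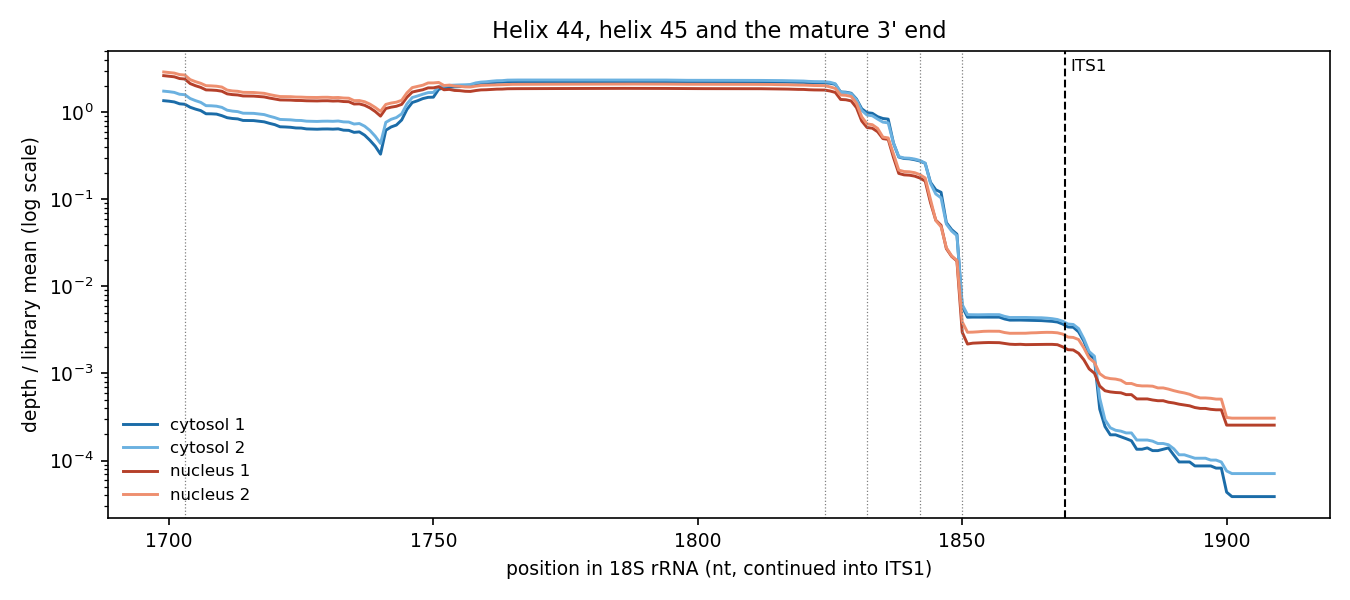
Relative depth on a log axis from the start of helix 44 through the mature 3' end (dashed line) and 40 nt into ITS1, with 1 line per library and dotted lines at the helix 44 start, the first decoding adenosine and the modified nucleotides after it. All libraries fall sharply at nt 1850, and from nt 1758 the cytosolic lines lie above the nuclear ones up to the first nucleotides of ITS1 and below them from nt 11 of ITS1.

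The edges of these stretches were compared as steps, the log2 ratio of mean depth in the 5 nt after a position to that in the 5 nt up to it. A step difference was called at 109 of the 669 positions of the region, which is 16.3%, less than the 23.3% of 8070 positions called over the whole table. The called positions formed 10 sites, 5 with a higher and 5 with a lower step in the nucleus. The largest difference was at nt 1741, where depth rises to the plateau. The step there was 0.94 and 0.82 from cytosol against 0.33 and 0.34 from nucleus, a difference of -0.54 (SE 0.05, limma adjusted p = 0.0178).

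The next sites were the descent in helix 45 and the fall into the helix 31 trough. At nt 1844 the step was -1.71 and -1.86 from cytosol against -2.18 and -2.32 from nucleus. At nt 1237 it was -0.72 and -0.84 from cytosol against -1.07 and -1.15 from nucleus. Both falls were steeper in the nucleus, by differences of -0.47 (SE 0.08) and -0.33 (SE 0.05), with limma adjusted p-values of 0.0429 and 0.0398. The other lower steps, at nt 1628 and nt 1569, differed by -0.04 and -0.03. The 5 higher steps differed by 0.08 to 0.12, at nt 1542, 1212, 1665, 1869 and 1735. With any 1 library left out limma called 0 sites, except for 2 lower ones without nuclear replicate 1. Positions at an unadjusted limma p under 0.05 numbered 56 to 95 in each direction in these fits.

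**Figure D4:**
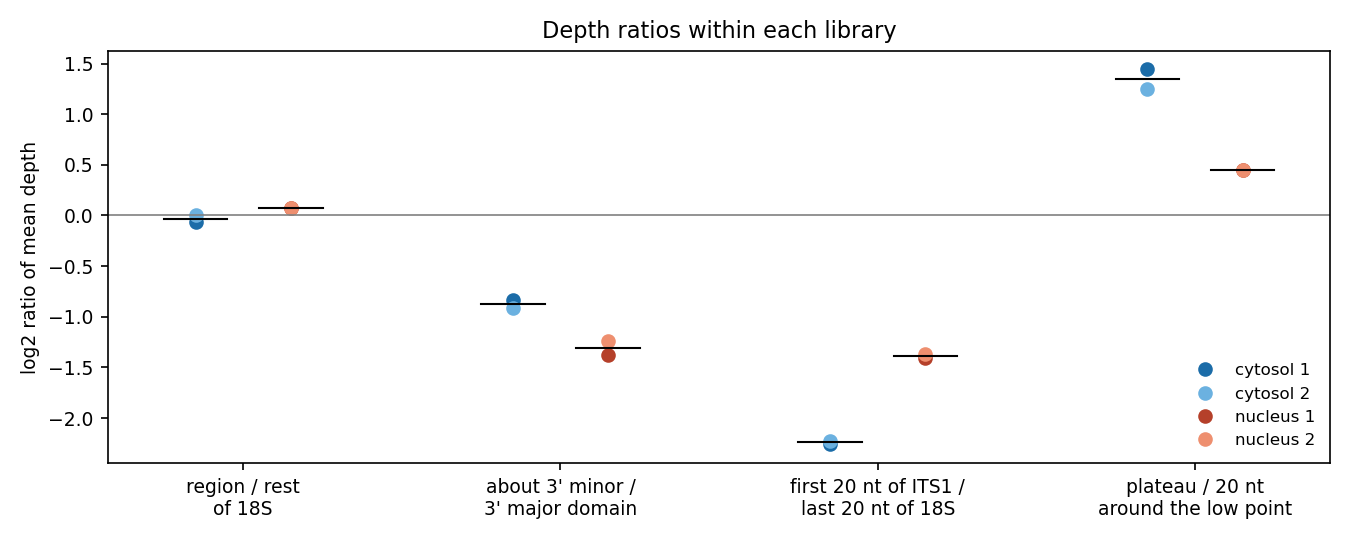
Log2 ratio of mean depth between stretches of the same library (vertical axis) for the region over the rest of 18S, about the 3' minor over the 3' major domain, the start of ITS1 over the end of 18S, and the plateau over the 20 nt around the low point. Points are libraries and bars are fraction means (n = 2), and the fractions do not overlap in any of the 4 ratios.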

How the data were processed

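The authors deposited 1 table of signal, the coverage (reads over each position, as whole numbers not scaled between libraries), for 4 libraries, per the file headers. Its columns were matched to the labels by the letters C and N, read as cytosol and nucleus, and the replicate number, which no label spells out. The submitters' processing notes name cutadapt 1.5, Bowtie2 2.2.6 and SAMtools. What settings they had, and whether strand was used, is not given in the sources used here. Summed depth was 3021350782 to 3384088983 per library. Region limits came from the positions of RNA45SN5 and its mature rRNAs in the RefSeq gene table of GRCh38.p14, and bases from the deposited table. Modified nucleotides were placed by textbook numbering.

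Windows of 50 nt were tiled from each region's first nucleotide, a last piece under 25 nt joining the one before. Windows whose mean depth reached 10 in 2 or more libraries entered the test across the whole table on log2(relative depth + 0.01) with limma 3.58.1 in R 4.3.3 (lmFit, eBayes with a trend, Benjamini-Hochberg adjustment). Regions were tested by limma without a trend or pseudocount, and steps with a trend at positions with a depth of at least 100 in every library over the 10 nt used. Called positions within 10 nt and of the same sign formed a site. Single ratios were tested with a two-sided exact permutation test (scipy 1.17.1). Relative depth is a share of rRNA reads. On simulated data with 264 windows, 65.3% of those given a log2 change of 0.5 were called, 89.3% of those changed by 1, 99.3% of those changed by 2, and 1% of unchanged ones. The simulated windows varied independently and most were unchanged. Neighbouring windows of the real data share reads and many were called, so these rates may not hold for them.

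Named windows were the 4 largest called rises and falls with fractions apart, the deepest and shallowest of each fraction, and those holding functional sites, and named step sites were the 5 largest per direction. The region, lists and rule were chosen with earlier results of these data known. Alternatives covered scaling, window size, pseudocount, depth minimum, trend, G+C, a replicate block and each library left out.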

Additional observations from a re-analysis of the deposited data

How the results depend on the processing

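Libraries can be scaled to each other in several ways. Against the library mean, the median of ratios shifts all log2 differences by -0.22, 28S by 0.19 and 18S by -0.37. The region difference was 0.22, 0.067 and 0.63 with the median of ratios, 18S and 28S (limma adjusted p = 0.322, 0.412 and 0.0216). With a replicate block it stayed at 0.44 but missed the threshold (limma adjusted p = 0.0515). Without 1 library it ran from 0.36 to 0.52. The count of higher windows was 3 with the median of ratios, 4 with 18S and 10 with 28S. Out of more or fewer windows, it was 16 of 27 at 25 nt and 4 of 7 at 100 nt. Without 1 library it ran from 6 to 10. The count of lower windows was 1 with the median of ratios, with medians over positions, at 25 nt and with the G+C line removed, 2 with 18S, and 0 without any 1 library. With 18S, signs turned in the 4 windows that start at nt 1251 (-0.13), 1301 (-0.12), 1351 (-0.066) and 1401 (-0.029), and at nt 1751 to 1800 with 28S (0.00103). The log2 difference of the minor over the major domain was -0.16 with medians, -0.55 with 150 nt, -0.27 with 190 nt and -0.50 to -0.37 without 1 library. That past the 3' end was 2.54 with medians, 0.41 with 10 nt on each side and 0.84 to 0.88 without 1 library. That of the plateau was -1.13 with medians and -0.99 to -0.80 without 1 library, and that of the region over the rest of 18S was 0.07 to 0.14. Sites with a higher step numbered 0 without any 1 library, and those with a lower step 0 to 2. The cause of these changes was not tested.

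The replicate numbers are not stated to mark a shared culture, and with 2 pairs the correlation of same-number deviations (0.14 over 264 windows) does not settle a pairing. The replicate block left 8 higher windows, and 5 higher and 3 lower step sites. Tiling shifted by 25 nt, added after the data were seen, gave 8 higher windows of 14. Depth limits the last 20 nt of 18S and the start of ITS1, with 178 to 902 reads of mean depth.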
